A study of Mus musculus with 15 samples.

Results

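IL6Myc-5 is a mouse myeloma cell line of the genotype IL6Myc, and its 3 technical replicate libraries were compared with the mean of the 4 other line means, among 15 RNA-seq libraries in all. The other lines, IL6Myc-1, IL6Myc-2, IL6Myc-3 and IL6Myc-4, carry the same genotype label and are represented by 3 technical replicates each. The lines come from the IL6Myc mouse, described by the submitters as an immunocompetent model of aggressive multiple myeloma, a cancer of plasma cells, the cells that secrete antibody. No age, treatment or passage is labelled for any line, and the panel holds no normal plasma cell. Each line is a single biological unit, so p-values measured the spread between technical libraries and not between lines or tumours. The labels do not say whether the lines come from separate tumours.

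Plasma cells make large amounts of antibody under the transcription factors XBP1, IRF4 and BLIMP-1 (gene Prdm1). Their survival depends strongly on MCL1, an anti-apoptotic protein of the BCL2 family that binds pro-apoptotic partners such as BIM and is quickly turned over, and MCL1 is a drug target in myeloma. In human myeloma, gain of the chromosome arm that carries MCL1 is a common finding. Mouse Mcl1 lies on chromosome 3.

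Levels are in CPM, which are counts divided by a library size corrected by the trimmed mean of M values (TMM), with the SD of the 3 technical libraries after ±. Differences are log2 differences of IL6Myc-5 from the mean of the other 4 lines on the log scale, with their standard errors (SE). A call of higher or lower needed an edgeR quasi-likelihood adjusted p below 0.05 together with a log2 difference of 1 or more in size. Of 11773 genes tested, 940 (7.98%) were called, 565 (4.8%) were called higher and 375 (3.19%) lower. With the arithmetic mean of the 4 lines as the reference, which a single high line pulls up, the split was 285 higher and 520 lower. The mean on the log scale is in turn pulled down by a single line near 0. Ly6k, described below, had a log2 difference of 3.24 on the log scale and 0.41 against the arithmetic mean. A stricter count asks for the same call against each of the other 4 lines as well, and is called "singly" here. It held for 100 genes higher (0.849%) and 71 lower (0.603%). All 3 IL6Myc-5 libraries lay above the 12 other libraries for 755 genes (6.41%) and below them for 587 (4.99%). The counts of gene list members given below are to be read beside these shares of all tested genes. The median log2 difference of all tested genes was 0.00. The nearest line was IL6Myc-3, from which 604 genes were called higher (5.13%) and 557 lower (4.73%). Against IL6Myc-4, 683 were higher (5.8%) and 649 lower (5.51%), and against IL6Myc-2, 572 higher (4.86%) and 866 lower (7.36%). The farthest line was IL6Myc-1, with 1054 higher (8.95%) and 660 lower (5.61%). Depth was 19068543 to 26715316 estimated counts in the IL6Myc-5 libraries and 19068543 to 41165599 over all. Reads of immunoglobulin genes took 6.55% to 6.86% of the counts of IL6Myc-5, within the 4.61% to 11.6% of all libraries, and 18S ribosomal RNA took 0.132% to 0.283%, within the 0.132% to 0.553% of all.

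The label of IL6Myc-5 as a myeloma line was matched by its transcripts. The IgA and kappa constant genes, Igha and Igkc, stood at 30099.8 ± 1167 CPM and 22868 ± 394 CPM. Xbp1, Irf4 and Prdm1 stood at 1757 ± 85 CPM, 1200.3 ± 36 CPM and 181 ± 6.9 CPM. Sdc1 (CD138), a plasma cell surface proteoglycan, was measured at 314 ± 3.2 CPM, and Myc at 1415 ± 138 CPM. None of these genes was called different from the other lines. A single kappa segment, Igkv4-68, took 99.8% ± 0.013 of the kappa V segment counts of IL6Myc-5, and the same segment led in all 5 lines at 99.8% to 99.9%. Of the 19 tested genes of a plasma cell list, 1 was called higher and 2 lower, with a median log2 difference of 0.01. The gene called higher was Ly6k, a membrane-anchored LY6 family gene, at 175 ± 6.8 CPM against 162, 0.0169, 217 and 149.9 CPM in IL6Myc-1 to IL6Myc-4, and its log2 difference of 3.24 was 0.01 without IL6Myc-2 and 0.41 against the arithmetic mean of the lines. Cd28, a costimulatory receptor gene of plasma cell survival, stood at 27.7, 30.97 and 26.6 CPM in the 3 libraries of IL6Myc-5 and at 118, 217, 103 and 61.9 CPM in IL6Myc-1 to IL6Myc-4 (log2 difference -1.99 ± 0.04 SE, adjusted p = 1.71e-15). All 3 libraries lay below the 12 others, and Cd28 was 1 of the 71 genes lower singly. Cd93, a surface protein of long-lived plasma cells, was called lower at 51.04 ± 0.57 CPM, but IL6Myc-1 stood lower still at 37.8 CPM.

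Of the 100 genes higher singly, 29 lay in a stretch of chromosome 3 around Mcl1. Mcl1 was measured at 1844, 1949 and 1921 CPM in the 3 libraries, against line means of 535, 639.8, 463 and 646 CPM in IL6Myc-1 to IL6Myc-4. All 3 libraries lay above all 12 others, with no overlap, at 2.95 times the next line (log2 difference 1.75 ± 0.03 SE, adjusted p = 8.54e-17). The genes on either side of it were high as well. When the tested genes were put in their order along the chromosome, a running median over 11 neighbouring genes stayed at 0.5 or more from Them4 to H2ac18, a stretch of 54 tested genes with Mcl1 inside it. This rule, which asks for at least 10 genes in a row, was set after the values had been seen, so the stretch is a description of these libraries with no test.

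**Figure D1:**
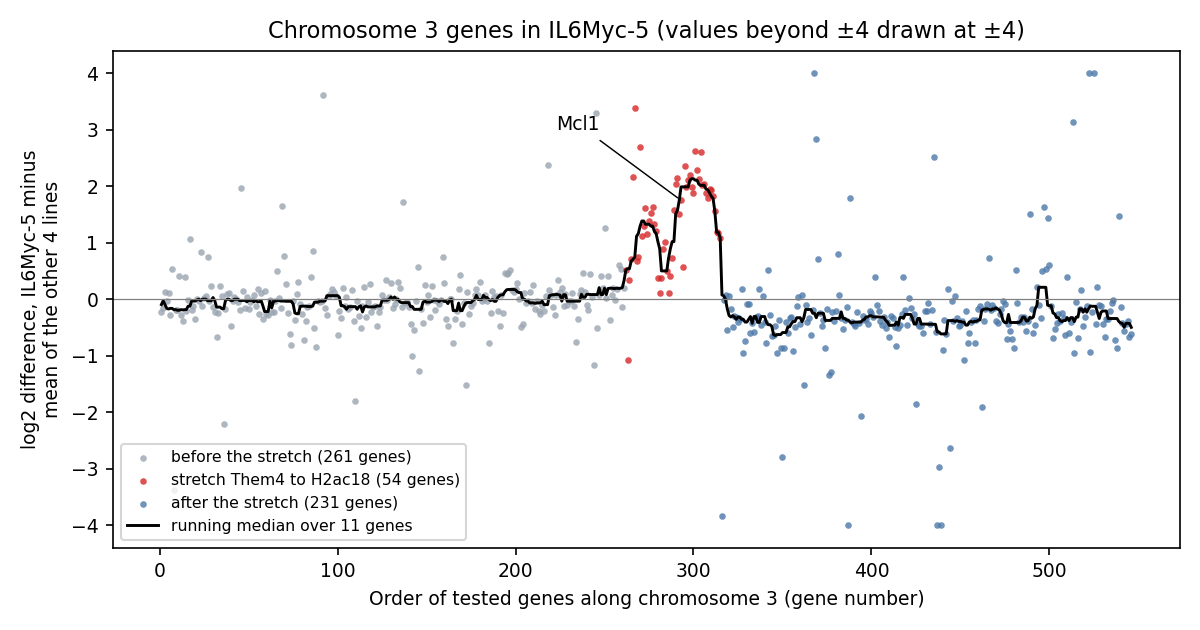
Tested genes of chromosome 3 in their order along the chromosome (x axis, gene number), with the log2 difference of IL6Myc-5 from the mean of the other 4 lines (y axis), coloured by zone, and a running median over 11 genes as a black line. The running median stays near 0 before the stretch, rises to about 2 around Mcl1 with a dip inside the stretch, and lies below 0 over most of the rest of the chromosome.

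Within the stretch the median log2 difference was 1.54, a 2.91-fold higher level. Of its 54 genes, 44 (81.5%) had all 3 IL6Myc-5 libraries above the 12 others and none had them below. Calls were made for 38 higher and 0 lower, and 29 were higher singly. Against each other line in turn the median was 1.25 (IL6Myc-1), 1.33 (IL6Myc-2), 1.57 (IL6Myc-3) and 1.62 (IL6Myc-4). The difference was therefore present against each of the 4 lines and did not rest on 1 of them.

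The members of the stretch have varied roles. Ctss, which encodes the lysosomal protease cathepsin S, stood at 1311, 1472 and 1466 CPM against line means of 333, 576, 235 and 312 CPM (log2 difference 2.04 ± 0.03 SE, adjusted p = 1.53e-17). Anp32e, a chaperone of the histone variant H2A.Z, stood at 651, 689.7 and 699.7 CPM against 196, 132, 185 and 166 CPM (log2 difference 2.02 ± 0.04 SE, adjusted p = 8.54e-17). Both genes lay clear of every other library. Of the spliceosome genes, Prpf3 was measured at 162, 166 and 190.3 CPM against 33.8, 35.4, 41.98 and 38.9 CPM (log2 difference 2.21 ± 0.06 SE, adjusted p = 1.07e-14). Sf3b4, also a splicing factor gene, stood at 257 ± 27 CPM against 59.4 to 72.8 CPM. Rprd2, which encodes a protein that binds the tail of RNA polymerase II, was measured at 176 ± 8.9 CPM against 38.9 to 44.1 CPM and Aph1a, a subunit of the gamma-secretase that cleaves Notch receptors, at 292 ± 16 CPM against 57.3 to 74.1 CPM. Prpf3, Sf3b4, Rprd2 and Aph1a were 3.53 to 4.11 times as high in IL6Myc-5 as in the next line.

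Arnt, the partner of the hypoxia-inducible factors and of the aryl hydrocarbon receptor, stood at 177 ± 8.7 CPM against 51.8 to 74.1 CPM. Tars2, the mitochondrial threonyl-tRNA synthetase gene, was measured at 263 ± 12 CPM against 58.8 to 79.8 CPM, and Golph3l, a Golgi gene, at 215 ± 18 CPM against 43.7 to 61.7 CPM. Ciart, a repressor of the circadian clock, stood at 45.7 ± 3.4 CPM against 4.80 to 11.2 CPM. Each of these was higher singly. Selenbp1, a selenium-binding protein gene, stood at 34.2, 34.7 and 37.6 CPM against 4.69, 5.02, 7.02 and 5.53 CPM, 5.06 times the next line. Its neighbour Selenbp2 is close in sequence, so reads of the pair may have been split, and Selenbp2 itself stood at 2.67 ± 0.89 CPM against 0.190 to 0.348 CPM.

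The rise was not even along the stretch. Near its start, the proteasome genes Psmb4 and Psmd4 stood at 345 ± 37 CPM and 314 ± 19 CPM, with log2 differences of 0.74 and 1.16. In its middle, Setdb1, a histone methyltransferase gene, had a log2 difference of 0.73, and Gabpb2 and Anxa9 overlapped the other lines, at 0.37 and 0.12. From Ecm1 to Otud7b an unbroken run of 14 tested genes lay above all 12 other libraries. On the scale log2(CPM + 1) against the arithmetic mean of the 4 line means, which gives smaller values than the fit, the median over the stretch was 1.19, 1.30 and 1.23 in the 3 libraries of IL6Myc-5.

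The rest of chromosome 3 did not share the rise. The 261 tested genes before the stretch had a median log2 difference of -0.03. The 231 genes after it, from H3c14 to Depdc1a, had a median of -0.36, a 0.777-fold level, and 72 of them (31.2%) had all 3 IL6Myc-5 libraries below the 12 others, against 4.99% of all tested genes. Their median was negative against each line, from -0.58 against IL6Myc-1 to -0.23 against IL6Myc-4. Among them was Nras, a RAS gene often mutated in myeloma, at 65.4, 69.4 and 73.3 CPM against 153, 81.9, 94.9 and 99.6 CPM (log2 difference -0.59 ± 0.04 SE, adjusted p = 2.24e-09). Notch2, a Notch receptor gene, stood at 13.1 ± 1.1 CPM against 16.7 to 25.5 CPM. Tent5c, which encodes a poly(A) polymerase often lost in human myeloma, stood at 638 ± 21 CPM against 740.0 to 850.4 CPM. These 3 genes lay below all 12 other libraries without reaching the size threshold. Txnip, a thioredoxin-binding protein gene that also lies after the stretch, overlapped the others with a log2 difference of -0.00.

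Chromosome 8 showed a smaller and broader difference. Its 606 tested genes had a median log2 difference of 0.38, a 1.3-fold higher level, and 88.6% of them lay above 0 against 50.2% of all genes. In 229 of them (37.8%) all 3 IL6Myc-5 libraries were above the 12 others, and in 5 below, and these 229 genes made up 30.3% of all 755 genes of that kind. The median was 0.41, 0.42, 0.31 and 0.35 against IL6Myc-1 to IL6Myc-4, and 0.33, 0.30 and 0.35 in the single libraries of IL6Myc-5 on the log2(CPM + 1) scale. The running median was above 0 at 99.7% of the genes, from one end of the chromosome to the other. Since the difference was small per gene, only 35 of the 606 were called higher, and 12 were called lower. Of all tested genes, 4.8% were called higher and 3.19% lower, so the shift shows in the medians more than in the calls.

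Individual genes of chromosome 8 follow that pattern. Jund, an AP-1 transcription factor gene, stood at 388, 363 and 400.2 CPM against 153, 215, 218 and 241 CPM (log2 difference 0.91 ± 0.04 SE, adjusted p = 1.63e-11). Jak3, the kinase that signals from the common gamma chain of cytokine receptors, was measured at 135 ± 9.9 CPM against 54.6 to 96.6 CPM. Clcn3, a chloride and proton exchanger gene, stood at 117 ± 4.3 CPM against 74.9 to 84.7 CPM. All 3 genes lay above all 12 other libraries, and their log2 differences of 0.91, 0.87 and 0.57 were below the threshold of 1, which Jak3 reached without IL6Myc-2. Inpp4b, a lipid phosphatase gene of the PI3K pathway on the same chromosome, was higher singly, at 4.06, 4.67 and 3.45 CPM against 0.323, 1.90, 0.312 and 0.187 CPM.

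**Figure D2:**
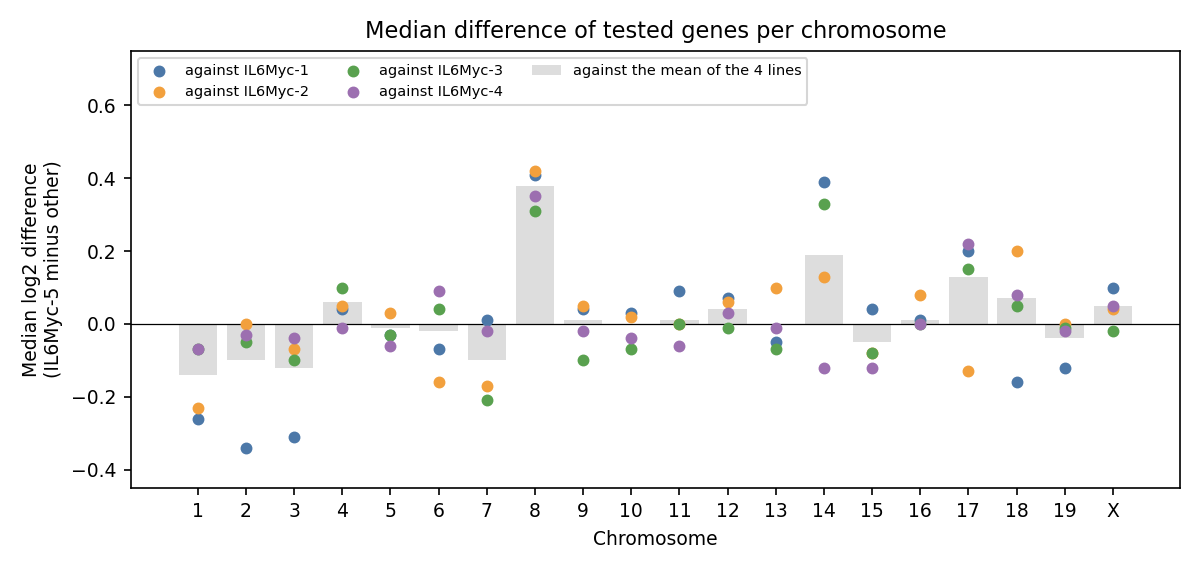
Median log2 difference of the tested genes of each chromosome (x axis), as grey bars against the mean of the other 4 lines and as points against each line singly (y axis). Chromosome 8 stands at 0.38 with all 4 points above 0.3, whereas the points of chromosome 14 lie on both sides of 0.

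The rule of a running median at or beyond 0.5 over at least 10 genes also marked 12 genes of chromosome 8 from Spcs3 to Sh3rf1 (median 0.66), 14 from Pgpep1 to Ccdc124 (0.52) and, on the lower side, 10 genes of chromosome 15 from Ly6d to Ly6g (-0.91). Of these 10, 5 were called lower and 2 higher, 5 lay below all 12 other libraries and 1 above, and the log2 differences ran from -1.56 to 3.24, the highest being that of Ly6k. No other stretch met the rule. Chromosome 1 had a median of -0.14, with 13.1% of its genes below all 12 other libraries. Chromosome 14 had a median of 0.19, but against IL6Myc-4 it was -0.12. On the Y chromosome, Eif2s3y and Ddx3y, which are broadly expressed in male cells, had 0 counts in the 3 libraries of IL6Myc-5, with a detection limit of 0.0427 CPM, the level of 3 counts. They were at 0 counts in IL6Myc-1 as well, whereas the means of IL6Myc-2 to IL6Myc-4 were 42.2 to 84.4 CPM for Eif2s3y and 25.6 to 47.6 CPM for Ddx3y. The Y-linked genes Uty and Kdm5d still had 119 and 128 counts in IL6Myc-5, at 1.72 ± 0.44 CPM and 1.79 ± 0.26 CPM, and both have close relatives on the X chromosome whose reads could be shared. DNA was not analysed here, so the number of copies of any chromosome was not measured.

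Within the BCL2 family, Mcl1 was the only gene called. It was higher, and the other 12 of 13 tested members passed in neither direction. Bcl2l1, which encodes the anti-apoptotic protein BCL-XL, stood at 103, 111 and 111 CPM in IL6Myc-5 against 172, 237, 156 and 231 CPM (log2 difference -0.85 ± 0.04 SE, adjusted p = 7.37e-12). Bcl2 stood at 12.02, 12.96 and 10.6 CPM against 25.98, 30.7, 17.9 and 14.4 CPM (log2 difference -0.85 ± 0.07 SE, adjusted p = 1.4e-08). Bcl2l11, which encodes the pro-apoptotic protein BIM, was measured at 123, 122 and 120.4 CPM against 179.8, 214, 163 and 194 CPM (log2 difference -0.62 ± 0.03 SE, adjusted p = 2.69e-10). All 3 of these genes lay below all 12 other libraries, and none reached the size threshold, which Bcl2 passed without IL6Myc-4 (log2 difference -1.04). Bid, which links death receptors to mitochondria, lay above them at 44.1 ± 2.5 CPM against 24.4 to 28.8 CPM, also below the threshold.

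**Figure D3:**
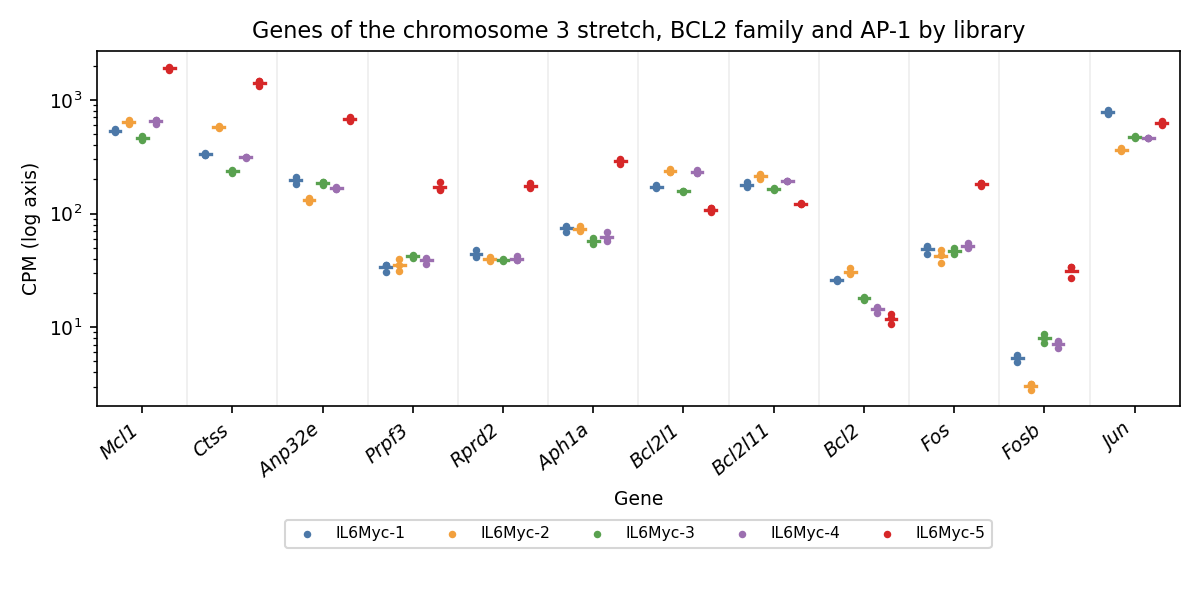
CPM on a log axis (y axis) of 12 genes (x axis) in each of the 15 libraries, coloured by line, with a bar at each line mean. IL6Myc-5 is highest for the 6 genes of the chromosome 3 stretch on the left and for Fos and Fosb, and lowest for Bcl2l1, Bcl2l11 and Bcl2, while Jun overlaps.

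The immediate early genes Fos and Fosb stood apart in IL6Myc-5. AP-1 is a dimer of FOS and JUN proteins whose genes are switched on within minutes of growth factor or stress signals. Fos was measured at 187, 184 and 176 CPM against 48.6, 42.3, 46.8 and 51.8 CPM (log2 difference 1.95 ± 0.05 SE, adjusted p = 2.97e-14), and Fosb at 33.8, 26.9 and 33.6 CPM against 5.34, 3.05, 7.96 and 7.15 CPM (log2 difference 2.52 ± 0.07 SE, adjusted p = 6.37e-14). The libraries of IL6Myc-5 lay above all others by 3.52 and 3.95 times the next line, and both genes were higher singly. Jun overlapped the other lines at 629.6 ± 25 CPM, between 365 to 776 CPM, and so did Junb at 96.7 ± 3.9 CPM. Among 31 tested genes of RAS MAPK signalling and its feedback, 5 were called higher and 0 lower, with a median log2 difference of 0.22. Of all tested genes, 4.8% were called higher. Egr1 and Spry1, called among the 5, overlapped other lines at 0.430 ± 0.064 CPM and 1.88 ± 0.48 CPM. Egr1 was higher in IL6Myc-3, at 2.32 CPM, and Spry1 in IL6Myc-4, at 2.83 CPM. Against the arithmetic mean of the 4 other lines, Egr1 stood at 0.643 times. Dusp5, a phosphatase gene induced by ERK signalling, was 1 of the 5, at 148, 149 and 158 CPM against 60.97, 41.5, 92.3 and 67.04 CPM. How the cells were handled before lysis is not labelled, and its part in the level of these fast genes was not tested.

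Of 36 tested interferon-response genes, 11 were called higher and 0 lower, where 4.8% of all genes were called higher. In 10 members, called or not, all 3 IL6Myc-5 libraries lay above the 12 others, against 6.41% of all tested genes. The median log2 difference of the list was 0.29. Many targets of type I interferons carry a repeat of GAAA letters in their promoters. The letters GAAANNGAAA were searched on both strands in the 300 bases around each start site (250 before to 50 after) of a RefSeq promoter table of the assembly GRCm38.p6, after the calls had been seen. The motif was present for 8 of the 9 called members with an entry (88.9%), for 8 of 21 members not called (38.1%), and for 3.65% of the 9331 tested genes with an entry. These 8 are pairs of related genes and so are not independent: Ifi207 and Ifi203, Gbp7 and Gbp2, Ifitm2 and Ifitm3, Tgtp1 and Tgtp2. A gene counted when any of its entries matched, and a further entry of Ifi203 held no match. Over all genes called higher the share was 6.44%, and over all called lower 3.93%. A match of letters is no measurement of binding. The list was chosen for interferon response, so its share of matches beside that of all genes was no test of IL6Myc-5. The windows of 60 bases printed here lie before the start site, read 5′ to 3′ on the strand of the gene as the table gives it, and carry the match in capitals. The first 30 bases after the start were found in a GENCODE transcript of the same gene for 18635 of 25174 entries of that table, and their reverse complement alone for 0. Of the genes printed, Ifi207 is the one whose bases after the start share no run longer than 9 with its transcripts on either strand. They are shown to let the matches be compared, for the called members whose match lies before the start.

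Ifi207 (chr1:173741816-173741875, - strand): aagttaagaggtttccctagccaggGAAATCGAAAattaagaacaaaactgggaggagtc
Ifi203 (chr1:173942493-173942552, - strand): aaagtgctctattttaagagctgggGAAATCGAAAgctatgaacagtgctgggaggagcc
Gbp7 (chr3:142530258-142530317, + strand): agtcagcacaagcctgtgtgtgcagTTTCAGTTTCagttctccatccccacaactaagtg
Gbp2 (chr3:142620579-142620638, + strand): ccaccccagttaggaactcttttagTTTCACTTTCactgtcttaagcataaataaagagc
Ifitm2 (chr7:140955973-140956032, - strand): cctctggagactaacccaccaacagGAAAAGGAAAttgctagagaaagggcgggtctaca
Tgtp1 (chr11:48992289-48992348, - strand): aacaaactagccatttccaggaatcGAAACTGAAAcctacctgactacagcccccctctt
Tgtp2 (chr11:49064248-49064307, - strand): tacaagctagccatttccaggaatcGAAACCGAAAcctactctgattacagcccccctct

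The genes differed in how far they stood above the other lines. Ifi44, an interferon-induced gene of unclear function, was measured at 7.84, 10.4 and 7.93 CPM against 0.0255, 0.0169, 0.461 and 2.06 CPM. It was higher singly, at 4.23 times IL6Myc-4, and IL6Myc-1 and IL6Myc-2 held 2 and 1 counts of it. Ifi44 had a promoter entry without a match. Ifi204, a DNA sensor gene of the p200 family, stood at 47.4, 52.2 and 50.4 CPM against 7.35, 0.0523, 18.5 and 26.1 CPM (log2 difference 3.71 ± 0.12 SE, adjusted p = 2.15e-13). Its relatives Ifi207 and Ifi203 stood at 9.77 ± 0.74 CPM and 5.07 ± 0.53 CPM, and a further relative, Ifi202b, at 6.85, 5.90 and 6.64 CPM against 0.805, 0.0159, 1.35 and 1.25 CPM. These genes lie side by side on chromosome 1 and are alike in sequence, so reads may have been split among them. The p200 genes were nearly absent from IL6Myc-2, with 3, 2, 20 and 1 counts of Ifi204, Ifi207, Ifi203 and Ifi202b.

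Gbp2 and Gbp7, guanylate-binding protein genes of host defence, stood at 9.57 ± 0.58 CPM against 2.55 to 5.08 CPM and at 26.2 ± 4.6 CPM against 3.90 to 18.9 CPM. Ifitm2 and Ifitm3, which encode membrane proteins that block virus entry, stood at 53.1 ± 0.66 CPM against 12.1 to 31.002 CPM and at 22.9 ± 0.94 CPM against 5.19 to 16.1 CPM. Mx1, an antiviral GTPase gene, stood at 4.95 ± 0.47 CPM against 0.275 to 3.13 CPM. These 5 genes lay above all 12 other libraries, at 1.38 (Gbp7) to 1.88 (Gbp2) times the next line. Tgtp1 and Tgtp2, a pair of near-identical GTPase genes, were called against the mean but overlapped other lines, at 1.38 ± 0.14 CPM and 1.17 ± 0.23 CPM. Both calls were lost when the arithmetic mean of the 4 lines was the reference, with log2 differences of 0.61 and 0.90, and that of Tgtp2 without IL6Myc-1 (0.84).

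**Figure D4:**
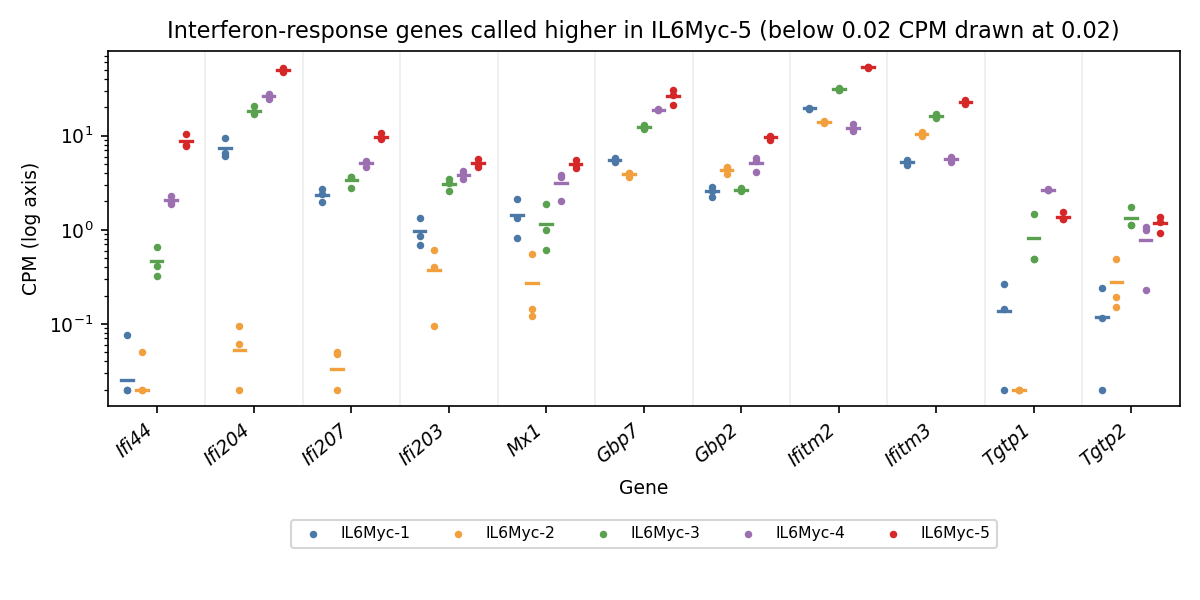
CPM on a log axis (y axis) of the 11 interferon-response genes called higher in IL6Myc-5 (x axis) in each library, coloured by line, with a bar at each line mean and values under 0.02 drawn at 0.02. IL6Myc-5 is highest for 9 of the 11 by its mean, IL6Myc-2 is lowest for the 4 leftmost, and Tgtp1 and Tgtp2 overlap other lines.

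Genes of MHC class I, which presents peptides to T cells, showed 1 call among 20 tested members, and 19 of the 20 lay above 0, with a median log2 difference of 0.44. The single call, H2-Q7, overlapped IL6Myc-2, at 85.2 ± 9.1 CPM against 82.1 CPM, is 1 of a family of near-identical genes, and was not called without IL6Myc-4 (log2 difference 0.46). B2m and H2-K1 stood at 828 ± 33 CPM and 463 ± 13 CPM, within the range of the other lines. Among immunoglobulin constant genes, 4 of 8 tested were called lower and 0 higher, with a median of -1.33, where 3.19% of all genes were called lower. Iglc2, a lambda light chain constant gene, stood at 26.99, 24.8 and 27.2 CPM against 78.6, 1164, 144 and 263 CPM (log2 difference -3.20 ± 0.04 SE, adjusted p = 6.99e-19), and its relative Iglc1 at 38.4 ± 3.7 CPM against 76.8 to 334 CPM. Reads may be split between the near-identical lambda genes. Ighd and Ighg3 were called lower with 5 and 44 counts over the 3 libraries, and Ighg3 was not called when IL6Myc-2 was left out (log2 difference -0.23).

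Among the B cell genes, Cd24a, a surface glycoprotein gene, was called higher at 214, 218 and 214 CPM against 2.86, 134, 142 and 45.2 CPM (log2 difference 2.44 ± 0.04 SE, adjusted p = 9.81e-17). Ms4a1, which encodes CD20, stood at 205 ± 7.3 CPM against 54.9 to 174 CPM, above all 12 other libraries and just under the size threshold at 0.97, which it passed without IL6Myc-1 (1.09) or IL6Myc-4 (1.21). Of 10 tested genes of mature B cells, 2 were called higher and 0 lower.

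Outside the chromosome 3 stretch, genes that reached 5 CPM in IL6Myc-5 and were highest against the next line had low to moderate levels. Clec2f, a C-type lectin gene, was measured at 17.3, 19.3 and 17.8 CPM against 0.418, 1.53, 1.84 and 0.587 CPM, 9.85 times the next line (log2 difference 4.33 ± 0.14 SE, adjusted p = 1.58e-13). Atrnl1, an attractin-like membrane protein gene, stood at 10.1 ± 0.38 CPM against 0.00770 to 1.72 CPM, and Nhsl1, an actin regulator gene, at 5.24 ± 0.45 CPM against 0.267 to 0.907 CPM. Lamb1, a laminin chain gene of basement membranes, stood at 7.005 ± 1.1 CPM against 0.00770 to 1.49 CPM, and Itih5, a gene for a protein that binds hyaluronan, at 5.67 ± 0.41 CPM against 0.0314 to 1.32 CPM. Each of these 5 genes was higher singly. Mgarp, a mitochondrial protein gene on chromosome 3 before the stretch, stood at 20.3 ± 2.2 CPM against 0.0890 to 5.13 CPM.

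Notch3 and Gli2 were higher singly. Notch3, a Notch receptor gene, stood at 10.9, 9.61 and 10.9 CPM against 0.285, 2.74, 0.858 and 0.113 CPM, 3.82 times IL6Myc-2, whose own libraries spread widely at 1.34, 1.47 and 5.40 CPM. Gli2, the transcription factor of Hedgehog signalling, had 282 counts in IL6Myc-5 (4.05 ± 0.44 CPM) and 0, 0, 0 and 2 counts in IL6Myc-1 to IL6Myc-4. Gli1, a factor and target of the same pathway, was called lower at 0.573 ± 0.15 CPM against 0.0806, 0.921, 1.21 and 958 CPM, and its log2 difference of -2.43 turned to 0.34 without IL6Myc-4. Ptch1, the Hedgehog receptor gene, stood at 46.9 ± 2.8 CPM against 53.3, 41.7, 53.03 and 462 CPM in IL6Myc-1 to IL6Myc-4, and was not called. Only IL6Myc-4 stood far from it, and IL6Myc-5 lay within the range of IL6Myc-1 to IL6Myc-3. The log2 difference of -0.88 passed the threshold without IL6Myc-1 (-1.11), IL6Myc-2 (-1.23) or IL6Myc-3 (-1.11), sets that all keep IL6Myc-4. Of 22 tested genes of the Wnt, Notch and Hedgehog pathways, 3 were called higher and 2 lower, with a median of -0.02. Fzd6, a Wnt receptor gene, went the other way, with 0 counts in IL6Myc-5, which allows up to 0.0427 CPM, and line means of 8.36, 0.120, 3.43 and 9.58 CPM in the others. That is at least 2.81-fold lower than IL6Myc-2, taking 3 counts in IL6Myc-5 as the limit. Abcg2, a drug efflux pump gene, stood at 2.16 ± 0.13 CPM against 0.442 to 0.632 CPM and was higher singly.

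The gene that most clearly separated IL6Myc-5 on the low side was Lrpap1, which encodes RAP, a chaperone of the LDL receptor family in the endoplasmic reticulum. Lrpap1 had 3 counts over the 3 libraries, at 0, 0.159 and 0 CPM, against 17.1, 20.05, 18.999 and 27.8 CPM in the other lines (adjusted p = 2.39e-12). The ratio of IL6Myc-1, the next line, to IL6Myc-5 was 393, with an exact 95% interval of 134 to 1906 that covers counting error only. Xlr4a, an X-linked lymphocyte-regulated gene with near-identical copies, stood at 0.159, 0.106 and 0.114 CPM against 9.84, 15.1, 8.93 and 9.05 CPM. Efhc2, an X-linked gene for a cilium protein, had 3 counts against a lowest line mean of 1.27 CPM in IL6Myc-1, a ratio of 29.1 (interval 9.70 to 143). Nudt12, a peroxisomal NADH hydrolase gene, stood at 0.0683 ± 0.077 CPM against 0.980 to 6.73 CPM.

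Other genes of the low side stood near or under 1 CPM in IL6Myc-5. Wdfy3, which encodes a scaffold of selective autophagy, stood at 0.0689 ± 0.039 CPM against 0.886 to 6.39 CPM, and Col6a4, a collagen gene, at 0.0898 ± 0.095 CPM against 0.906 to 19.6 CPM. Abcd3, a peroxisomal fatty acid transporter gene on chromosome 3 after the stretch, had 2 counts against 7.23, 7.68, 2.80 and 0.375 CPM, a ratio to IL6Myc-4 of 13.2 (interval 3.35 to 114). Ehhadh, an enzyme gene of peroxisomal fatty acid oxidation, stood at 1.08 ± 0.15 CPM against 3.63 to 7.85 CPM. Prickle3, a planar polarity gene, stood at 0.159, 0.850 and 0.152 CPM against 2.63 to 9.56 CPM. Each was lower singly.

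The 15 lowest genes included 4 more. Arhgdib, a GDP-dissociation inhibitor gene of blood cells, stood at 29.2, 31.4 and 33.3 CPM against 160.4, 204, 112 and 115 CPM (log2 difference -2.19 ± 0.04 SE, adjusted p = 8.23e-17). Dock10, an exchange factor gene for RAC and CDC42, stood at 0.437 ± 0.13 CPM against 2.29 to 7.45 CPM, and Arhgap29, a GTPase-activating protein gene, at 1.25 ± 0.47 CPM against 4.69 to 17.5 CPM. Emp3, a membrane protein gene, stood at 6.64 ± 1.2 CPM against 22.8 to 32.9 CPM. In all 4 genes the IL6Myc-5 libraries lay below all 12 others, and all 4 were lower singly.

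**Figure D5:**
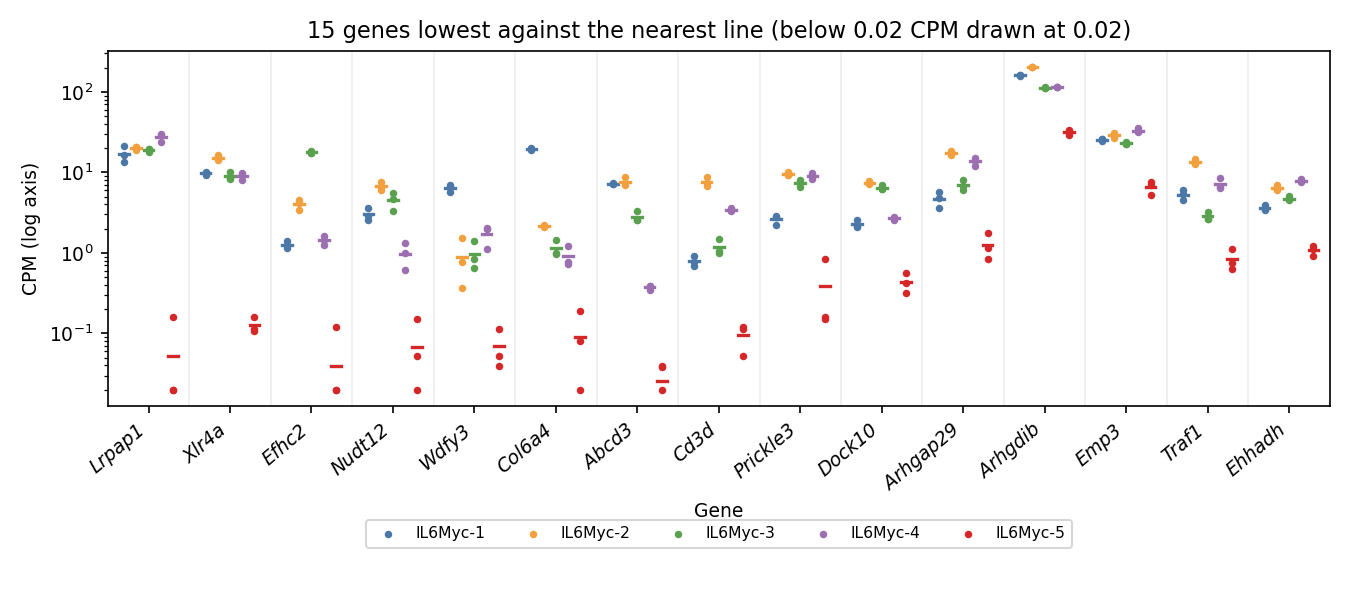
CPM on a log axis (y axis) of the 15 genes that were lowest in IL6Myc-5 against the next line (x axis) in each library, coloured by line, with a bar at each line mean and values under 0.02 drawn at 0.02. The 3 libraries of IL6Myc-5 lie below all others in each gene, from Lrpap1 with 3 counts to Arhgdib at 31.3 CPM.

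NF-kB genes gave 5 calls lower and 0 higher among 24 tested, with a median log2 difference of -0.18, where 3.19% of all genes were called lower. Traf1, an NF-kB target gene for an adaptor of TNF receptors, was lower singly, at 1.11, 0.637 and 0.759 CPM against 5.29, 13.5, 2.84 and 7.14 CPM (log2 difference -2.85 ± 0.18 SE, adjusted p = 1.21e-09). The other calls rested on a mean that holds IL6Myc-2. Map3k14, which encodes the kinase NIK of the alternative pathway, stood at 3.004 ± 0.33 CPM in IL6Myc-5 and at 2.58, 142, 2.75 and 2.95 CPM in the others, and its difference turned to 0.12 when IL6Myc-2 was left out. Ltb, the lymphotoxin beta gene, had 11 counts in IL6Myc-5 against a mean of 276 CPM in IL6Myc-2, and its adjusted p of 0.0158 became 0.109, 0.12 and 0.067 without IL6Myc-1 replicate 3, IL6Myc-4 replicate 2 or IL6Myc-5 replicate 3. Pair by pair, its log2 difference was 2.08 from IL6Myc-1, -0.22 from IL6Myc-3 and 1.26 from IL6Myc-4, with no call in these pairs. Nfkbia and Tnfaip3, feedback inhibitors of the pathway, stood at 27.1 ± 2.8 CPM and 2.45 ± 0.51 CPM. Without IL6Myc-2 their log2 differences were -0.53 and -0.80, under the size threshold.

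Of 17 tested cytokine and interleukin receptor genes and their ligands, 1 was called higher and 3 lower, with a median of -0.09. Over all genes these shares were 4.8% and 3.19%. The gene called higher, Il15, stood at 2.80 ± 0.18 CPM against 0.903 to 1.18 CPM (log2 difference 1.43), above all 12 other libraries. Il15 was higher singly, and 0 members of the list were lower singly. Il2rg, the common gamma chain of cytokine receptors, stood at 24.3, 21.1 and 23.7 CPM against 33.4, 190.2, 52.7 and 76.2 CPM (log2 difference -1.62 ± 0.06 SE, adjusted p = 8.35e-13). Il16, a cytokine gene, stood at 17.2 ± 0.59 CPM against 21.6 to 67.6 CPM. Of 28 tested therapy targets and checkpoint genes, 4 were called higher and 2 lower, with a median of -0.01. Cd52, the gene of the alemtuzumab target, stood at 67.02 ± 1.96 CPM against 91.8 to 399 CPM, and Fcrl1, an Fc receptor-like gene of B cells, at 4.33 ± 0.22 CPM against 5.39 to 21.6 CPM. Il2rg, Il16, Cd52 and Fcrl1 all lay below the 12 other libraries and were called lower against the mean. The call of Cd52 was lost without IL6Myc-2 (log2 difference -0.81). Caspase genes gave 3 calls lower among 19 tested genes of death receptors and caspases. They were Casp4 and Casp12, of the inflammatory caspase group, and Casp6, an effector caspase, at 1.41 ± 0.30 CPM, 1.24 ± 0.23 CPM and 0.891 ± 0.051 CPM, and each overlapped at least 1 other line.

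Of 6 tested T and NK cell markers, 2 were called lower and 0 higher, with a median log2 difference of -0.74. Both encode CD3 chains of the T cell receptor. Cd3d stood at 0.119, 0.0531 and 0.114 CPM against 0.793, 7.61, 1.19 and 3.42 CPM and was lower singly, and Cd3g stood at 1.43 ± 0.20 CPM against 2.02 to 21.98 CPM. The CD3 chain gene Cd3e was not tested, with 3 counts in IL6Myc-5 and 4, 3, 3 and 1 in IL6Myc-1 to IL6Myc-4. The summed level of 19 T and NK cell markers was 26.5 to 31.4 CPM in the libraries of IL6Myc-5, with 4 markers at 0 counts, and 34.1 to 128 CPM in those of the other lines. Cd2 made up most of the sum in IL6Myc-5, at 22.6 ± 2.1 CPM against 25.1 to 81.4 CPM. It was not called, with a log2 difference of -0.95, and its libraries overlapped those of IL6Myc-3. The part of other cells in these differences was not tested, and in bulk RNA fewer cells of a kind and less RNA per cell cannot be told apart. The summed level of 20 myeloid markers was 207 to 220 CPM in IL6Myc-5, with 6 at 0 counts, inside the 151 to 791 CPM of the others. C1qb and Cd68 made up most of it, at 113 ± 6.2 CPM and 75.4 ± 2.6 CPM, and Cd68 passed as lower without IL6Myc-3 (-1.11). Of 8 tested myeloid markers, Itgam was called lower, at 1.01 ± 0.16 CPM. The 13 erythroid and megakaryocyte markers summed to 7.64 to 9.37 CPM, with 9 at 0 counts, against 2.41 to 7.91 CPM in the other lines. Gp9, a platelet receptor gene, was called higher at 2.19 ± 0.35 CPM against 0.314 to 2.94 CPM, and its log2 difference of 1.43 was 0.97 without IL6Myc-3 and 0.87 against the arithmetic mean. The 19 stromal and epithelial markers summed to 409 to 434 CPM, with 6 at 0 counts, of which Epcam, an adhesion gene, held 379.8 ± 9.3 CPM. Krt18, a keratin gene, was called higher at 17.4 ± 1.5 CPM against 0.211 to 15.3 CPM, and its call was lost without IL6Myc-1 (0.60).

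Several lists held no call, where 7.98% of all genes were called, a share at which a short list may hold none. None of 34 tested genes of the unfolded protein response and folding in the endoplasmic reticulum was called, with a median of -0.03, nor any of 20 p53 targets (-0.03), 18 genes of ribosome biogenesis (0.01) or 13 mitochondrially encoded transcripts (-0.08). Of 21 tested genes of IL-6 receptor, JAK and STAT signalling, 0 were called, with a median of 0.06. Stat3 stood at 148 ± 7.4 CPM, and the receptor genes Il6ra and Il6st at 21.5 ± 1.6 CPM and 108 ± 10 CPM. Il6st, which encodes gp130, lay below all 12 other libraries with a log2 difference of -0.62. Socs3, a target and inhibitor of STAT3, stood at 16.3 ± 1.6 CPM, beside IL6Myc-2 at 17.7 CPM, and its log2 difference of 0.99 passed the size threshold without IL6Myc-2 replicate 1, without IL6Myc-5 replicate 3 (1.05) and without the line IL6Myc-2 (1.35). Trp53, Cdkn2a, Ccnd2, Cd38 and Tnfrsf17, which encodes BCMA, stood at 114 ± 5.4 CPM, 29.5 ± 1.4 CPM, 1172 ± 33 CPM, 64.97 ± 0.39 CPM and 20.1 ± 1.5 CPM, and none was called.

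Lipid and sugar metabolism differed by less than the size threshold in most genes. Of 37 tested genes of sterol and fatty acid synthesis, 1 was called higher and 0 lower, with a median log2 difference of -0.21. In this list 10 lay below all 12 other libraries, against 4.99% of all tested genes. Sqle, a cholesterol synthesis enzyme gene, stood at 45.5, 45.3 and 48.3 CPM against 75.8, 74.2, 72.5 and 74.9 CPM (log2 difference -0.68 ± 0.04 SE, adjusted p = 1.23e-09), and Scd2, a desaturase gene, at 1217 ± 98 CPM against 1539.5 to 2212 CPM. The call was Abca1, a cholesterol export pump gene, at 95.4 ± 7.7 CPM against 32.6 to 59.7 CPM, with a log2 difference of 1.03 that was 0.86 without IL6Myc-3 and 0.99 without IL6Myc-5 replicate 2. Of 23 tested glycolysis genes, 1 was called higher and 1 lower, with a median of 0.25, and 4 lay above all 12 other libraries, against 6.41% of all tested genes. Pgk1 and Gapdh, enzyme genes of the pathway, were among those 4, at 1997, 1955 and 2151 CPM against 1253, 1274, 833 and 1116 CPM and at 1391 ± 44 CPM against 679.6 to 1076 CPM. Slc38a1, a glutamine transporter gene, was called lower, at 21.1 ± 1.3 CPM against 41.6 to 85.3 CPM, the 1 call among 24 tested genes of amino acid stress and transport.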

How the data were processed

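RNA from 5 cell lines with 3 technical replicates each was extracted with an RNeasy mini kit and prepared with the TruSeq Stranded Total RNA chemistry, per the labels. The submitters' processing notes name the GRCm39 build, DESeq2 and Trim Galore 0.4.0. The aligner, the quantifier and the gene models were not given in the sources used here. In 1 table the authors deposited values for 32434 entries, under a name that says TPM. Its values behave as estimated counts: the deposited columns sum to 19068543 to 41165599, and 30.8% to 54.3% of values above 0 and under 1.5 lie near 1. A further deposited column, in the unit the file names TPM, equals the mean of the 15 libraries and was not used. If the quantifier corrected for transcript length, levels here carry that correction.

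The estimated counts were rounded and tested in edgeR 4.0.16 (R 4.3.3) with TMM scaling (factors 0.848 to 1.08), for genes reaching 1 CPM in 3 or more libraries, in 1 quasi-likelihood fit over all 15 libraries with the line as the factor and Benjamini-Hochberg adjustment over 11773 genes. The contrast is IL6Myc-5 minus the mean of the other 4 line coefficients, and 4 pairwise contrasts gave the calls made singly. Replicates of a line differed by more than sampling noise (chi-square per degree of freedom 4.51 to 19.6) and were kept as 3. The test was tried on simulated counts over 11773 genes for this comparison. Among 100 genes given a 2-fold change, 93 reached significance in the true direction, 44 were called and 15 were called singly. Among 100 given a 4-fold change, 99 were called and 98 were called singly. Of the unchanged genes, 7 reached significance and 0 were called. Unlike in the data, the other lines shared the same mean for each gene in the simulation. Calls that rest on a single other line were therefore not tried.

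Names were matched to mouse symbols of GRCm38.p6 for 32186 entries (99.2%). Gene order came from that assembly, which is not the submitters' build. The comparison and the 42 gene lists were chosen with earlier results of these data known. Named genes are the 15 highest and 15 lowest by fold against the nearest line among genes called singly, with all 3 libraries outside the other 12 and a mean of 5 CPM or more in the higher line, plus up to 4 called members per list, a set of myeloma genes and markers of other cells. Names for immunoglobulin segments, predicted genes and pseudogenes were left out of the first group. Genes of the chromosome 3 stretch, of chromosome 8 and others outside this rule (Ctss, Anp32e, Nras, Jund, Bcl2l1 and the like) were picked after their values were seen. Alternatives were DESeq2 1.42.0 size factors and test, library totals, limma 3.58.1 on log2(CPM + 1), other filters, a replicate block, an arithmetic mean, and leaving out each library or line.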

Additional observations from a re-analysis of the deposited data

How the results depend on the processing

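Except for Map3k14 and Gli1, the direction of every called gene followed here was the same under each alternative in which it passed the filter. Map3k14 turned from -1.29 to 0.12 without the line IL6Myc-2, and Gli1 turned from -2.43 to 0.34 without the line IL6Myc-4. Outside IL6Myc-2, Ltb stayed below 1 CPM in every library, so without that line it was not tested. Egr1, Spry1, Il15 and Cd2 were not followed through the alternatives. Of these, Egr1 also turned in direction, from a log2 difference of 2.25 to 0.643 times the arithmetic mean of the 4 lines. With limma on log2(CPM + 1), whose scale shrinks low genes, the counts were 276 higher and 215 lower against the mean, 65 and 24 singly, 427 lower than IL6Myc-1, 313 higher than IL6Myc-2, 369 higher and 299 lower than IL6Myc-3, and 393 higher and 402 lower than IL6Myc-4. With limma the calls of Tgtp1, Tgtp2, Ighd, Casp12 and Gp9 fell under the size threshold. A filter of 5 CPM, which tests 9932 genes, gave 294 higher and 201 lower against the mean, 56 and 43 singly, 664 and 378 against IL6Myc-1, 306 and 502 against IL6Myc-2, 366 and 292 against IL6Myc-3, and 364 and 380 against IL6Myc-4. With no filter, 21140 genes were tested, 983 were higher against the mean and 871 lower than IL6Myc-3. With the arithmetic mean as the reference, 285 were higher and 520 lower. The part of single high or low lines in this shift was not tested. Fewer lines to differ from gave more calls singly: 144 lower without IL6Myc-1, 166 higher and 118 lower without IL6Myc-2, and 117 lower without IL6Myc-4. Leaving out single libraries gave 528 to 564 higher and 349 to 384 lower against the mean, 79 to 100 higher and 62 to 75 lower singly, 1018 to 1051 higher and 605 to 680 lower than IL6Myc-1, 538 to 581 higher and 750 to 861 lower than IL6Myc-2, 559 to 601 higher and 517 to 568 lower than IL6Myc-3, and 637 to 670 higher and 585 to 657 lower than IL6Myc-4. The replicate block gave 564 higher and 375 lower against the mean and changed no call of a gene followed here. With it, 99 of the 100 genes higher singly and 67 of the 71 lower singly were kept. The replicate numbers do not pair the samples: of 30 pairs of libraries with the same number in different lines, 1 had a correlation of deviations over 0.1 (range -0.0841 to 0.11, against -0.138 to 0.132 for different numbers), and 5 of 15 libraries correlated best with their own number. The median of the chromosome 3 stretch ran from 1.22 (limma) to 1.57, that of the genes after it from -0.40 to -0.29, and that of chromosome 8 from 0.34 to 0.40 under the other tests, scalings, filters and line sets, which were compared for these medians after seeing the data. Without chromosome 8 and the stretch, also chosen then, 504 were higher and 357 lower against the mean, and 70 and 61 singly. Depth limits genes under about 0.0427 CPM in IL6Myc-5, the level of 3 counts over its libraries.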
